A study of Mus musculus with 6 samples.

Results

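The genes described here encode the nuclear subunits of mitochondrial complex I. They were the protein-coding entries of the deposited table whose symbol begins with Ndufa, Ndufab, Ndufb, Ndufc, Ndufs or Ndufv followed by a number, without Ndufa4, whose protein belongs to complex IV, and Ndufa4l2. This rule used no measured value and found 36 genes among 55774 entries, all of which were expressed highly enough to be tested. The gene for the subunit NDUFB1 is annotated in GENCODE M21 under the symbol Ndufb1-ps as a non-coding entry and was not a member.

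Complex I is the largest enzyme of the respiratory chain. It takes electrons from NADH, passes them through iron-sulphur clusters to ubiquinone and pumps protons across the inner mitochondrial membrane. The N module in the matrix binds and oxidises NADH, the Q module below it reduces ubiquinone, and the membrane arm holds the proton pumps. The pumps themselves are encoded by mitochondrial DNA, whereas the catalytic matrix subunits and the many supernumerary subunits, which are needed for assembly and stability, are encoded in the nucleus. The paper that reported these data describes a change in embryos, as they develop, from mainly glycolysis to mainly oxidative phosphorylation.

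The study asked how extracellular vesicles from human Fallopian tubes (oviductal extracellular vesicles, oEV) act on mouse embryos. Wild-type embryos of the outbred ICR strain were taken from the oviduct at the 2-cell stage and cultured to blastocysts in CZB medium, either with oEV-EMT, vesicles from women with endometriosis, or with oEV-ctrl, vesicles from women with another gynaecological condition, for which the sample labels and the study's text give different names. Each group had 3 libraries of 10 pooled blastocysts, made from polyadenylated RNA. A group without vesicles was not analysed here, and nothing states whether the libraries came from separate cultures or vesicle donors, so p-values measure only the spread between these libraries, which may be technical. In pooled whole embryos, fewer cells of a type and less RNA per cell cannot be told apart.

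The values are FPKM, fragments per kilobase of transcript and per 1000000 fragments, and are given per length of transcript. Differences between libraries in these values depend on the scaling, which is given beside the counts it moves. The FPKM of a library summed to between 1293175 and 1551567, read totals cannot be recovered from them, and the depth of each library is therefore unknown. A single unannotated entry held 15.3% to 19.0% of this sum in oEV-EMT and 19.7% to 31.5% in oEV-ctrl, and its part in the results was not tested other than by scaling. Of the markers that identify a blastocyst, all 6 for trophectoderm, 6 for epiblast and 5 for primitive endoderm were above 0 in every library. The summed level of the trophectoderm markers ranged from 3097 to 4716 FPKM in oEV-EMT and from 3059 to 4808 in oEV-ctrl, most of it from Krt18 and Krt8. All 6 had a log2 fold change below the median of all genes tested, with a median of -0.19 relative to it. Of these, 0 had an unadjusted p of at most 0.05 (limma). The primitive endoderm markers summed to 131 to 256 FPKM in oEV-EMT and 178 to 234 in oEV-ctrl, most of it from Dab2. Of the 5 primitive endoderm markers, 2 had an unadjusted p of at most 0.05 (limma), Gata4 and Sox17, both higher in oEV-EMT, with overlapping groups for Sox17. The other 3, Dab2, Gata6 and Pdgfra, lay below the median of all genes tested, at -0.43, -0.36 and -0.10 relative to it. The epiblast markers summed to 81.8 to 105 FPKM in oEV-EMT and to 41.0 to 62.3 in oEV-ctrl without overlap. The largest part came from Nanog, with means of 51.8 and 25.4 FPKM. Of the 6, 3 had an unadjusted p of at most 0.05 (limma), Nanog, Pou5f1 and Fgf4, all higher in oEV-EMT. The other 3, Sox2, Esrrb and Klf2, lay below the median of all genes tested, at -0.49, -0.23 and -0.10 relative to it. Of 5 granulosa cell markers, 3 were at 0 in every library and the sum did not exceed 0.0484 FPKM. The 6 oocyte markers summed to 3.86 to 6.93 FPKM in oEV-EMT and 2.35 to 3.31 in oEV-ctrl, with Oosp1 at 0 throughout. Of the oocyte markers, 2 were expressed highly enough to be tested, and 1, Zp3, was higher in oEV-EMT at that threshold. Its FPKM were 1.58, 1.08 and 1.61 in oEV-EMT and 0.12, 0.36 and 0.79 in oEV-ctrl. It passed the filter of 1 FPKM in 3 libraries only through oEV-EMT. Its direction was therefore fixed by the filter and is no evidence of a difference. Over all genes tested, 12.8% were higher in oEV-EMT at an unadjusted p of at most 0.05 (limma). The part of the trophectoderm, epiblast, primitive endoderm and oocyte markers in the results was not tested.

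By their place in the enzyme, the members fell into 10 genes of the N module, 6 of the Q module and 20 of the membrane arm. Of these, 7 encode core subunits, those also found in the bacterial enzyme, and 29 encode supernumerary ones. The stretch of 250 bases before the annotated start was available from RefSeq (GRCm38.p6) for 32 members. It is shown here, 5′ to 3′ along the gene, for the 3 members with an unadjusted p of at most 0.05 and for Ndufa9, the member with the highest fold change. The positions are chrX:37191239-37191488, minus strand for Ndufa1, chr6:39592315-39592564, plus strand for Ndufb2, chr4:40279422-40279671, minus strand for Ndufb6 and chr6:126849145-126849394, minus strand for Ndufa9. Capitals mark a match to the ETS motif given below.
Ndufa1: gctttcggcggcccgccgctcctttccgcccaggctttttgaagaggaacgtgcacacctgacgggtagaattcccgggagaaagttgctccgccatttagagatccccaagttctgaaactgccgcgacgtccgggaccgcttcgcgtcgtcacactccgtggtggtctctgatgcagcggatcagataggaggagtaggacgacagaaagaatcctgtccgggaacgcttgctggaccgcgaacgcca
Ndufb2: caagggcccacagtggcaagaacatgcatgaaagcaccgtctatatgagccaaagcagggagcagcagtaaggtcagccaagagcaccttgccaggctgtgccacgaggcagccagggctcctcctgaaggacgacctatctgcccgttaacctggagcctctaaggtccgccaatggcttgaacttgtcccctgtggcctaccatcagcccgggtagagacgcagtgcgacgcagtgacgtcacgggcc
Ndufb6: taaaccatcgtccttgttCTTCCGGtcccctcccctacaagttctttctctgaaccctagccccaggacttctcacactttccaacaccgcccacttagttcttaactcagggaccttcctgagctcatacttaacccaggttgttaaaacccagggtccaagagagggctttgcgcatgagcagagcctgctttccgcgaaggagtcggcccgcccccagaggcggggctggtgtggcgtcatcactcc
Ndufa9: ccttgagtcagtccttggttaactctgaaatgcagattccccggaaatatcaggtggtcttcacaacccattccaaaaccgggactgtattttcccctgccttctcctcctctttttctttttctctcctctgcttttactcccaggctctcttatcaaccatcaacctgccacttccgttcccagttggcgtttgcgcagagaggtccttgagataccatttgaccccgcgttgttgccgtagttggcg

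Motifs of 3 factors known for controlling respiratory genes were searched on both strands of these 250 bases. The NRF1 motif CGCATGCG was found in 2 of 32 members (6.25%), Ndufa8 and Ndufa11, against 1.75% of 27025 genes. The ETS motif CCGGAAG, the core of the sites bound by NRF2 (GABP), was found in 3 of 32 (9.38%), Ndufb6, Ndufb7 and Ndufs3, against 7.83% of all genes. The YY1 motif AAGATGGCG was found in 0 of 32 members and in 0.710% of all genes. The median GC content of the stretch was 57.7% over the members and 52.4% over all genes. Of the 4 sequences shown, only that of Ndufb6 held one of these motifs, as its reverse complement.

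The transcripts of the 36 genes differed widely in level although their proteins are built into the same complex. Mean FPKM over the 6 libraries ranged from 36.8 for Ndufv1 to 900 for Ndufs5, a ratio of 24.5. Core subunits had a median of 98.5 FPKM and supernumerary subunits a median of 288. The medians were 202 FPKM in the N module, 193 in the Q module and 313 in the membrane arm. This order of genes was much the same in both groups, with a Spearman correlation of 0.969 between the group means over the 36 genes, given as a description. Higher levels went with shorter transcripts, with a Spearman correlation of -0.36 between mean FPKM and the length of the longest annotated transcript, although FPKM are already divided by length.

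**Figure D1:**
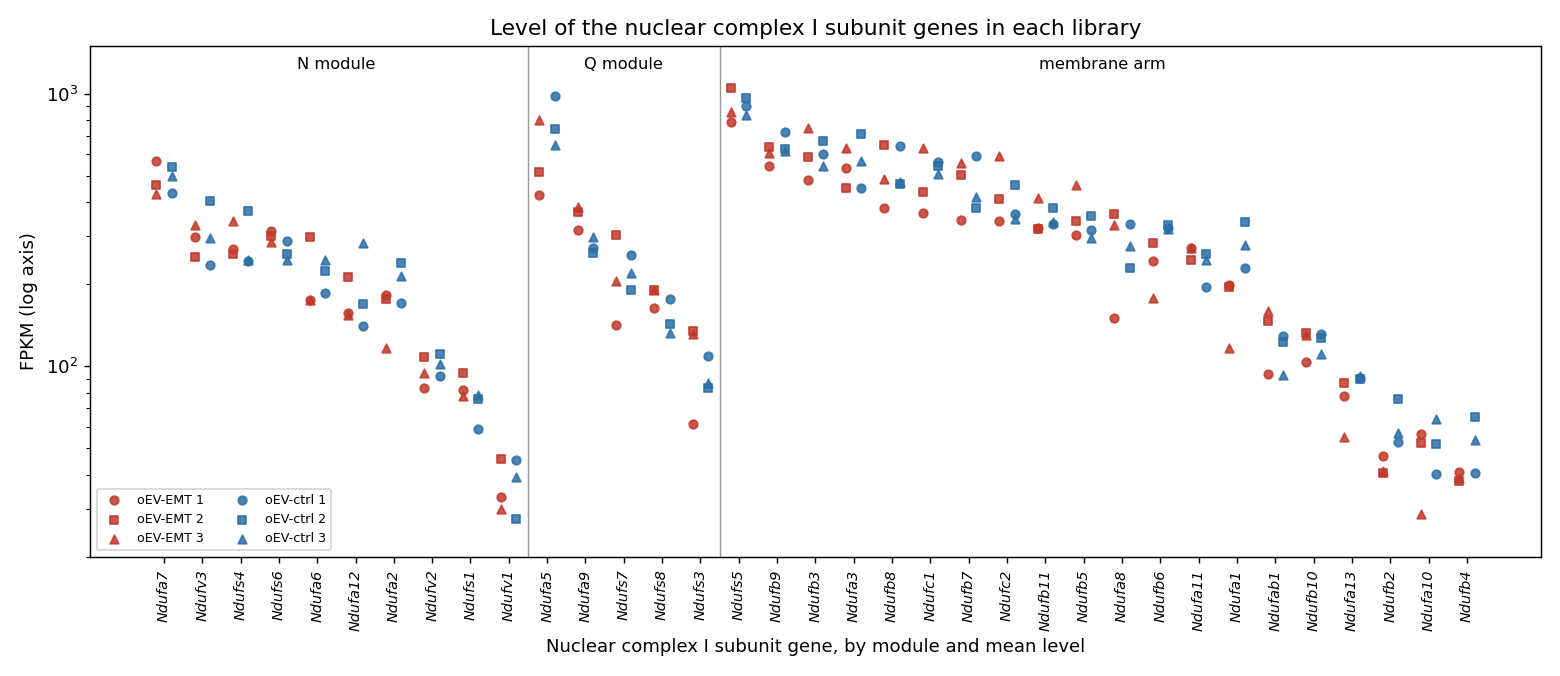
FPKM on a log axis for each of 35 of the genes, ordered by module and by mean level; red symbols are the 3 oEV-EMT libraries and blue symbols the 3 oEV-ctrl libraries. Levels span from 27.6 FPKM for Ndufv1 to 1050 for Ndufs5, and the groups overlap for all but 5 genes, Ndufa1, Ndufa13, Ndufb2, Ndufb6 and Ndufa9.

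Summed over the 36 genes, nuclear complex I transcripts reached 9020, 10776 and 11135 FPKM in oEV-EMT and 10799, 11140 and 10231 in oEV-ctrl. The means were 10311 ± 1132 (SD, n = 3) and 10723 ± 459, and the groups overlapped. As a share of all protein-coding FPKM, the sums were 1.48%, 1.71% and 1.70% in oEV-EMT and 1.63%, 1.64% and 1.58% in oEV-ctrl. Library oEV-EMT 1 had the lowest sum and held the lowest of the 6 values for 14 of the 36 genes.

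No member was called between the groups by limma, which is not the test that the study used (DESeq2). With limma, 0 of 36 genes passed both thresholds of the study, an adjusted p of at most 0.05 and a log2 fold change of 1 or more in size, against 0% of the 11924 genes tested in each direction, and the smallest adjusted p of a member was 0.222. At an unadjusted p of at most 0.05, 3 members were lower in oEV-EMT, Ndufa1, Ndufb2 and Ndufb6, or 8.33% against 2.55% of all genes, and 0 were higher against 12.8% of all genes. The groups did not overlap for 5 members, with oEV-EMT the lower group for 4 (11.1%), against 4.34% of all genes, and the higher for 1 (2.78%), against 18.1%. Over all genes tested the median log2 fold change was 0.17, so that the background leaned towards oEV-EMT.

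Relative to that value, the median over the 36 genes was -0.21, and 28 of them (77.8%) were below it. The single values ranged from -0.92 to 0.19. Without library oEV-EMT 1 the median was -0.06 and 23 genes lay below. It was between -0.26 and -0.19 under the 4 other scalings of the libraries tried. Dividing a library by a single factor shifts all its genes nearly alike. These scalings could therefore hardly move a value taken relative to all genes, and say little about its stability. With the libraries scaled by median of ratios, which brings the median of all genes to 0.01, 0 members were called against 0%, 6 members were lower at an unadjusted p of at most 0.05 (16.7%, against 6.47% of all genes) and 0 higher (against 6.46%). On that scale 7 members lay below without overlap (19.4%, against 10.3%) and 0 above (against 9.82%). With each library scaled to a sum of 1000000 instead, 0 members were called, 1 was lower at an unadjusted p of at most 0.05 (against 1.64% of all genes) and 1 higher (against 16.7%), while 0 lay below without overlap (against 2.77%) and 4 above (against 23.2%). With the unannotated entry left out of that sum, 3 were lower at an unadjusted p of at most 0.05 (against 3.16%), 6 lay below without overlap (against 5.29%) and 1 above (against 15.8%). The single members without overlap thus depended on the scaling.

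In the values as deposited, for 34 of the 36 genes (94.4%) the 95% confidence interval of the log2 fold change lay within a 2-fold change in either direction, which held for 70.4% of all genes tested. These are not sets of like level, with medians of 264 FPKM over the members and 7.74 over all genes tested. The share over genes in the range of levels of the members was not computed. The exceptions were Ndufa1, with an interval of -1.31 to -0.18, and Ndufa5, with -1.05 to 0.10. The number of members within 2-fold depended on the scaling. It was 28 after median-of-ratios scaling (76.1% of all genes), 26 after upper quartile scaling (75.9%) and 35 after scaling to a sum of 1000000 (67.1%), and the lowest bound of any member was -1.55, after upper quartile scaling. Standard errors ranged from 0.18 to 0.32 on the log2 scale in the values as deposited.

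**Figure D2:**
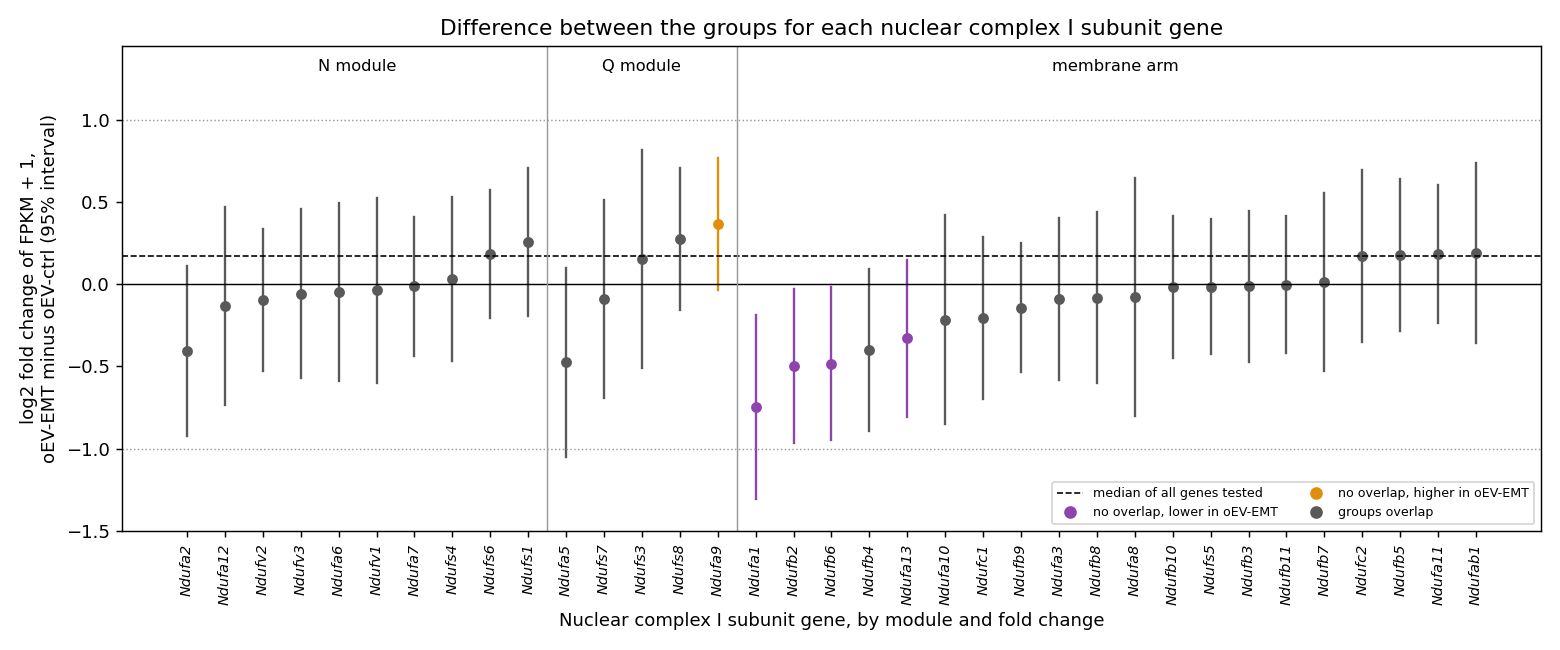
Log2 fold change of FPKM + 1, oEV-EMT minus oEV-ctrl, for each of 35 genes by module, with 95% confidence intervals from limma; the dashed line is the median of all genes tested (0.17) and the dotted lines mark a 2-fold change. Purple genes (Ndufa1, Ndufb2, Ndufb6, Ndufa13) and the orange gene (Ndufa9) are those whose groups do not overlap, and the intervals of Ndufa1 and Ndufa5 pass the lower dotted line.

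In the N module, 8 of 10 genes were below the median of all genes, and the median of the module was -0.21 relative to it, or -0.14 without either oEV-EMT 1 or oEV-ctrl 2. In the values as deposited, 0 of its genes had groups without overlap. After median-of-ratios scaling, Ndufa2 and Ndufv2 lay below oEV-ctrl without overlap. Ndufv1 binds FMN and carries the site where NADH is oxidised. It was the least abundant member, with 33.1, 45.8 and 29.8 FPKM in oEV-EMT and 45.3, 27.6 and 39.2 in oEV-ctrl. The groups overlapped, and the log2 fold change was -0.04 (SE 0.25, adjusted p = 0.956 by limma). Its partner Ndufv2, an iron-sulphur protein, had 83.6, 108 and 94.2 FPKM in oEV-EMT and 92.1, 111 and 102 in oEV-ctrl, again with overlap and a log2 fold change of -0.10 (SE 0.19, adjusted p = 0.836 by limma). Ndufs1, the largest core subunit and the carrier of several iron-sulphur clusters, was measured at 82.0, 94.5 and 77.9 FPKM in oEV-EMT and 59.0, 75.6 and 78.5 in oEV-ctrl. It had the highest fold change of the module, with 0.26 (SE 0.20, adjusted p = 0.567 by limma), and oEV-ctrl 3 lay above the lowest oEV-EMT library.

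Among the supernumerary genes of the N module, Ndufa2 encodes a small protein with a thioredoxin-like fold. Its FPKM were 182, 176 and 116 in oEV-EMT and 171, 239 and 214 in oEV-ctrl, with 1 oEV-ctrl library below the highest oEV-EMT libraries and a log2 fold change of -0.41 (SE 0.23, adjusted p = 0.430 by limma). Ndufa12, a relative of the assembly factor Ndufaf2, had 157, 213 and 154 FPKM in oEV-EMT and 141, 169 and 284 in oEV-ctrl. The oEV-ctrl libraries held both its lowest and its highest value, and the log2 fold change was -0.13 (SE 0.27, adjusted p = 0.842 by limma). It shares 17.7% of its stretches of 50 bases with the processed pseudogene Gm15920, which was listed at 286 to 387 FPKM, above the gene itself in every library, so the split of reads between them is uncertain. The sum of both differed by 0.04 on the log2 scale. The remaining N module genes (Ndufa6, Ndufa7, Ndufs4, Ndufs6 and Ndufv3) had log2 fold changes between -0.06 and 0.18, and their groups overlapped.

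The Q module was the only one with a median close to that of all genes, at -0.0024, with 3 of 6 genes below it. With Ndufa6 and Ndufa7 counted here and Ndufa9 in the membrane arm, another possible assignment, the median was -0.18. Whether the module differed from the others was not tested. Ndufs7 lines the pocket in which ubiquinone is reduced and carries the last iron-sulphur cluster before it. Its FPKM were 142, 304 and 206 in oEV-EMT and 256, 190.3 and 221 in oEV-ctrl. The oEV-EMT libraries held both the lowest and the highest value, and the log2 fold change was -0.09 (SE 0.27, adjusted p = 0.891 by limma).

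Ndufs3, a structural core subunit of this module, had 61.6, 134 and 131 FPKM in oEV-EMT and 109, 83.4 and 86.8 in oEV-ctrl. Library oEV-EMT 1 was the lowest of all 6, while the others of its group were the highest, and the log2 fold change was 0.15 (SE 0.30, adjusted p = 0.831 by limma). It shares 16.0% of its stretches of 50 bases with the processed pseudogene Gm12251. Ndufs8, the core subunit with the clusters that lead towards ubiquinone, had 163, 191 and 190.3 FPKM in oEV-EMT and 176, 143 and 132 in oEV-ctrl. Its groups overlapped through oEV-ctrl 1, and the log2 fold change was 0.28 (SE 0.19, adjusted p = 0.522 by limma).

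Ndufa9, a supernumerary subunit at the junction between the matrix and membrane arms, had the highest fold change of all 36 genes. Its FPKM were 317, 369 and 386 in oEV-EMT (mean 358 ± 35.6, SD, n = 3) and 271, 261 and 298 in oEV-ctrl (277 ± 19.1). Every oEV-EMT library lay above every oEV-ctrl library, yet the log2 fold change of 0.37 (SE 0.18, adjusted p = 0.363 by limma) missed the threshold, with an interval of -0.03 to 0.77. After median-of-ratios scaling it was 0.17 and the groups overlapped. Ndufa5, a small matrix subunit, went the other way, with 426, 515 and 801 FPKM in oEV-EMT and 985, 740.2 and 649 in oEV-ctrl. The highest oEV-EMT library lay above 2 of the oEV-ctrl libraries, and the log2 fold change was -0.48 (SE 0.26, adjusted p = 0.406 by limma).

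In the membrane arm, 17 of 20 genes were below the median of all genes, and the median of the arm was -0.25 relative to it, or -0.08 without library oEV-EMT 1. In the values as deposited, all 4 members below oEV-ctrl without overlap were in this arm, which holds 20 of the 36 genes. Of these, 2 were in the part next to the subunit ND1, 1 next to ND4 and 1 next to ND5. After median-of-ratios scaling, Ndufa2 and Ndufv2 of the N module also lay below without overlap. After scaling to a sum of 1000000, 0 members did. By part, the medians were -0.38 for 4 genes next to ND1, -0.19 for 5 next to ND2, -0.19 for 5 next to ND4 and -0.22 for 6 next to ND5. Whether these parts differed was not tested.

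Ndufa1 showed the largest difference of the 36 genes. It is an X-linked gene for a small subunit with a single membrane-spanning helix that is needed for assembly of the complex. Its FPKM were 199, 196 and 117 in oEV-EMT and 229, 337 and 279.7 in oEV-ctrl. Every oEV-EMT value lay below every oEV-ctrl value, with oEV-EMT 3 the lowest. The means were 170.5 ± 46.8 and 282 ± 54.2 (SD, n = 3), and the log2 fold change was -0.75 (SE 0.25, adjusted p = 0.222 by limma). After median-of-ratios scaling it was -0.94 (limma adjusted p = 0.216), and after scaling to a sum of 1000000 it was -0.65 (limma adjusted p = 0.247) and the groups overlapped. They also overlapped after the length correction, at -0.62 (limma adjusted p = 0.349). No other gene shared a stretch of 50 bases with it. The other X-linked member, Ndufb11, also a membrane arm subunit, had 323, 319 and 413 FPKM in oEV-EMT and 333, 381 and 339 in oEV-ctrl, with overlapping groups and a log2 fold change of -0.0045.

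Ndufb2 and Ndufb6, small supernumerary subunits of the part with the distal proton pumps, followed. For Ndufb2, the FPKM were 46.7, 40.7 and 41.3 in oEV-EMT and 52.9, 75.6 and 56.7 in oEV-ctrl. All oEV-EMT values were lower, with means of 42.9 ± 3.31 and 61.7 ± 12.2 (SD, n = 3), and the log2 fold change was -0.50 (SE 0.21, adjusted p = 0.298 by limma). For Ndufb6, they were 244, 284 and 178 in oEV-EMT and 321, 331 and 319 in oEV-ctrl. The oEV-ctrl libraries lay close together and above the spread of the oEV-EMT libraries, with means of 236 ± 53.5 and 324 ± 6.48 (SD, n = 3, oEV-EMT first) and a log2 fold change of -0.48 (SE 0.21, adjusted p = 0.309 by limma). Ndufb6 shares 31.6% of its 50-base stretches with the neighbouring gene Smim27, which was listed at 8.04 to 18.0 FPKM, and the sum of both differed by -0.45 on the log2 scale. The count of 3 members at an unadjusted p of at most 0.05 depended on single libraries, although fewer libraries also raise p. It was 0 without oEV-ctrl 2, 1 without oEV-ctrl 3 or oEV-EMT 3, and 2 without oEV-EMT 1 or oEV-EMT 2. Without oEV-EMT 3, Ndufa1, Ndufb2 and Ndufb6 had an unadjusted p of 0.0539, 0.0795 and 0.162 (limma), so the member counted there was another. Without oEV-ctrl 1 the count was 3, but Ndufb6 had an unadjusted p of 0.0761 (limma) and was not among them.

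Ndufa13, also known as GRIM-19, was named after its values were seen, as the fourth member below oEV-ctrl without overlap. It had 77.5, 87.0 and 55.2 FPKM in oEV-EMT and 90.8, 89.5 and 91.8 in oEV-ctrl, the tightest control values of any member, with a coefficient of variation of 1.31%. The oEV-EMT libraries spread over a wider range just below them, and the log2 fold change was -0.33 (SE 0.22, adjusted p = 0.489 by limma).

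Ndufs5, a subunit on the face towards the intermembrane space, was the most abundant member. Its FPKM were 789, 1050.1 and 855 in oEV-EMT and 903, 969 and 835 in oEV-ctrl, at a log2 fold change of -0.01 (SE 0.18, adjusted p = 0.977 by limma) and full overlap. Ndufab1, the mitochondrial acyl carrier protein, which also serves fatty acid synthesis and iron-sulphur cluster formation, had the highest fold change of the arm. It was measured at 93.5, 147 and 160.1 FPKM in oEV-EMT and 129, 123 and 93.0 in oEV-ctrl. The lowest value of each group was nearly the same, and the log2 fold change was 0.19 (SE 0.25, adjusted p = 0.742 by limma). The other 13 genes of the arm besides these and Ndufb11 had log2 fold changes between -0.40 and 0.18, and their groups overlapped.

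The libraries of a group differed more from each other in oEV-EMT. The coefficient of variation had a median of 22.1% over the 36 genes in oEV-EMT and 15.1% in oEV-ctrl, and it was larger in oEV-EMT for 23 of 36. The 2297 genes in the range of levels of the members had medians of 18.4% and 15.5%, in the same direction. It ranged from 4.02% (Ndufb4) to 40.7% (Ndufa8) in oEV-EMT and from 1.31% (Ndufa13) to 38.3% (Ndufa12) in oEV-ctrl. Within oEV-EMT, library 1 held the lowest value for 18 genes, library 3 for 11 and library 2 for 7. The level of a gene showed next to no relation to its fold change, with a Spearman correlation of 0.0533 over the 36 genes, and that with transcript length was 0.248, both as descriptions over genes that share libraries.

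Core and supernumerary genes were described apart. The 7 core genes had a median relative log2 fold change of -0.02, with 4 of them under that of all genes and values between -0.27 and 0.10. The 29 supernumerary genes had a median of -0.23, with 24 below and values between -0.92 and 0.19. All 3 genes at an unadjusted p of at most 0.05 were supernumerary. The difference between both classes was not tested.

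The mitochondrially encoded subunits of the enzyme were set beside the nuclear genes. The 7 mitochondrial complex I transcripts summed to 10730, 10336 and 11470 FPKM in oEV-EMT and to 19853, 17720 and 16329 in oEV-ctrl, without overlap. Divided by the nuclear sum of the same library, a ratio that no scaling between libraries can change, this was 1.19, 0.959 and 1.03 in oEV-EMT and 1.84, 1.59 and 1.60 in oEV-ctrl. The means of this ratio were 1.06 ± 0.118 and 1.68 ± 0.141 (SD, n = 3), and the groups did not overlap. All 7 transcripts lay below the median of all genes. Of them, 5 were lower in oEV-EMT at an unadjusted p of at most 0.05, against 2.55% of all genes. However, 0 were called (smallest limma adjusted p = 0.0951).

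**Figure D3:**
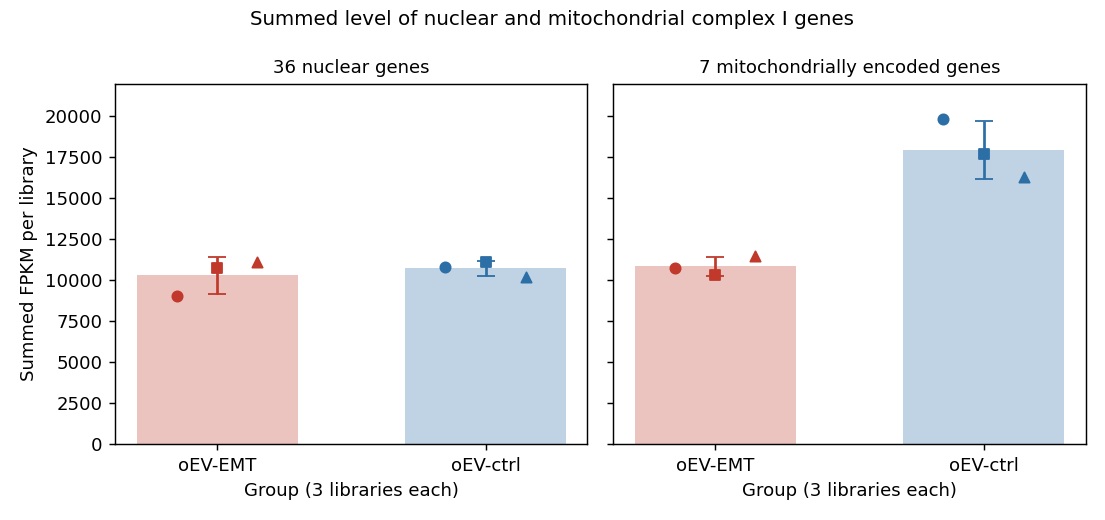
Summed FPKM per library of the 36 nuclear (left) and the 7 mitochondrially encoded (right) complex I genes; bars are group means, error bars SD, and symbols the 3 libraries of each group. The nuclear sums overlap (9020 to 11135 in oEV-EMT, 10231 to 11140 in oEV-ctrl), whereas the mitochondrial sums do not (10336 to 11470 and 16329 to 19853).

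Assembly factors build complex I but are not part of the finished enzyme. Of 19 listed, 18 were found and tested. Their transcripts were scarcer than those of the subunits, with a median of 24.5 FPKM against 264. They had a median relative log2 fold change of 0.09, with 6 of 18 below the median of all genes. At an unadjusted p of at most 0.05, 0 were lower (against 2.55% of all genes) and 1 was higher (against 12.8%). Without overlap, 5 lay above oEV-ctrl (27.8%, against 18.1% of all genes). The factor at an unadjusted p of at most 0.05 was Dmac2, named after its values were seen, with 34.9, 16.7 and 14.2 FPKM in oEV-EMT and 8.03, 8.16 and 9.07 in oEV-ctrl. All oEV-EMT values lay above, with a log2 fold change of 1.18 (SE 0.31, adjusted p = 0.164 by limma).

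For the other complexes, median relative log2 fold changes over nuclear genes were 0.18 for complex II (0 of 4 below the median of all genes), -0.14 for complex III (6 of 9), -0.29 for complex IV (9 of 11) and -0.39 for complex V (16 of 17). The lowest single values, -1.01 in complex III, -1.22 in complex IV and -1.51 in complex V, lay below the lowest of complex I, -0.92. Ndufa4, a complex IV gene that was not in that list, had 390, 440 and 364 FPKM in oEV-EMT and 735, 789 and 674 in oEV-ctrl. All its oEV-EMT values were lower, and its log2 fold change was -0.88 (SE 0.18, adjusted p = 0.105 by limma), or -1.05 relative to all genes. Differences between the lists were not tested, and the lists other than the nuclear complex I genes were not recomputed under other scalings.

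**Figure D4:**
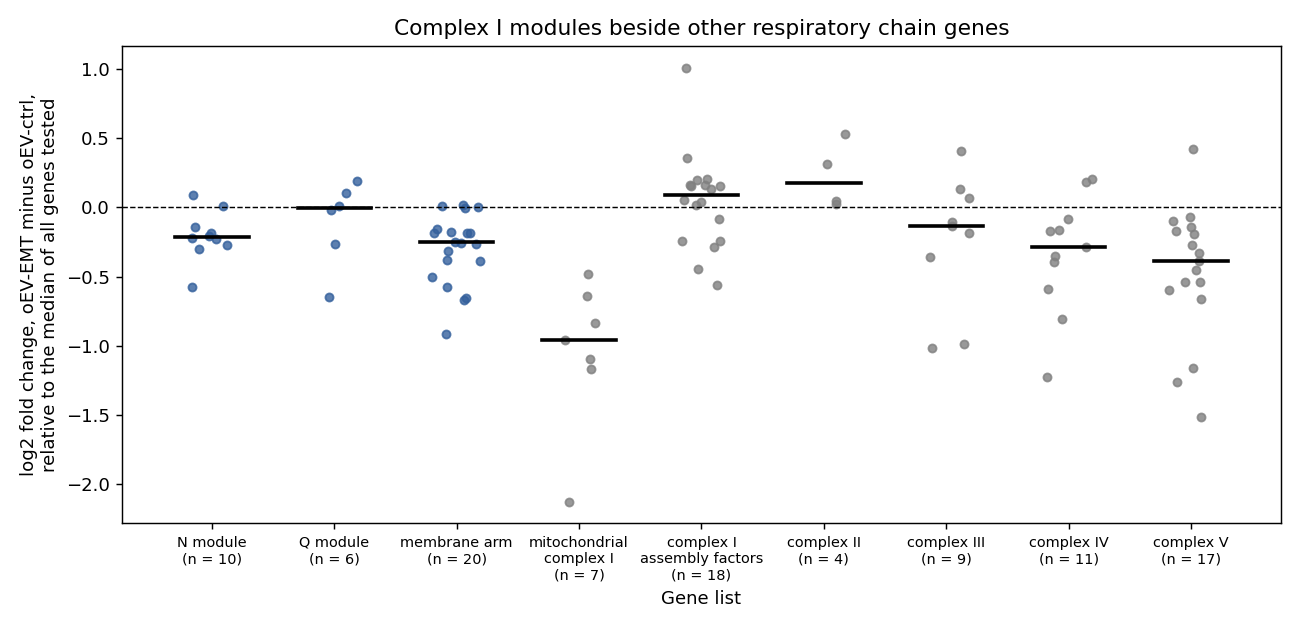
Log2 fold change relative to the median of all genes tested (dashed line) for each gene, with blue points for the 3 groups of nuclear complex I genes, grey points for the other lists and black bars for medians. The membrane arm has a median of -0.25 and the N module of -0.21, between those of complex III (-0.14) and complex IV (-0.29), and the mitochondrially encoded genes lie lower, with a median of -0.96.

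Sequence shared with other genes can move reads between them. Of the 36 members, 13 shared no stretch of 50 bases with another gene and 8 shared at least 10% of their stretches with a single one. These were Ndufa12, Ndufa13, Ndufb4, Ndufb5, Ndufb6, Ndufb9, Ndufs3 and Ndufs5, and their levels are uncertain to that extent. Summed with the other gene, their log2 differences ranged from -0.45 to 0.18. Ndufb1-ps, the entry of the subunit without a protein-coding annotation, was listed at 433, 290 and 617 FPKM in oEV-EMT and at 497, 535 and 400 in oEV-ctrl, with overlapping groups and a log2 fold change of -0.15 (SE 0.27, adjusted p = 0.811 by limma).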

How the data were processed

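Total RNA of 6 pools of 10 blastocysts was enriched for polyadenylated RNA and sequenced. The authors aligned the reads (mm10, per the submitters' processing notes), assembled transcripts with StringTie and deposited 1 value per gene and library. The aligner, the annotation and the versions are not given in the sources used here. The methods speak of TPM, but the deposited values do not sum to 1000000 and were analysed as FPKM. Values reach down to 1e-06, whole reads could not be recovered, and no counting interval is given. Every column of values was used.

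The groups were taken from the sample labels. Identifiers were matched to GENCODE M21 (GRCm38), with 55141 of 55774 entries matched. Genes with at least 1 FPKM in at least 3 libraries (11924) were fitted as log2(FPKM + 1) with limma 3.58.1 in R 4.3.3 (trended, robust variance) and adjusted by Benjamini-Hochberg over all of them. Fold changes on this scale understate those of low genes. The thresholds for a call followed the study's methods, an adjusted p of at most 0.05 and a log2 fold change of 1 or more in size. The study applied them with a different test, DESeq2, so its number of called genes and the one here are not like for like. For a single value, an exact permutation test of 3 libraries against 3 cannot give a p below 0.1, and none was reported. The script was tested on simulated data. Members, modules and lists were chosen with earlier results of these data known.

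Values per library are given for 6 core subunits, for the 3 lowest and the highest fold change of each module, and for the highest and the lowest mean level; other members are summarised, and 1 gene that this rule names is not reported here. Sharing was counted over identical stretches of 50 bases in annotated transcripts, on either strand. Alternatives covered the scaling, the filter (none, or 5 FPKM), the pseudocount (0.1 or 5), transcript length (loess, span 0.5), the variance model, a replicate block, the assignment to modules and leaving out each library. Scaling to a sum of 1000000 without the largest unannotated entry was added after the data were seen. Plots were made in Python 3.11.15 with matplotlib 3.10.9.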

Additional observations from a re-analysis of the deposited data

How the results depend on the processing

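The count of called members was 0 under each of the 17 alternatives (limma), but in 13 of them, as in the values as deposited, 0 genes were called in the whole table, so this says little about stability. Genes were called with the replicate block (21), and without oEV-ctrl 3 (16), oEV-EMT 1 (4) or oEV-EMT 3 (1). The smallest adjusted p of a member lay between 0.167 and 0.666. The count of 3 lower members at an unadjusted p of at most 0.05 became 6 with median-of-ratios scaling, 7 with upper quartile scaling (against 8.13% of all genes), 1 with scaling to a sum of 1000000 and 1 with the length correction (against 2.23%). Shares for the other scalings stand beside their counts above. The count of 0 higher members at that threshold became 1 with scaling to a sum of 1000000. The 4 lower members without overlap became 7, 8 and 0 with these 3 scalings, and the 1 higher member became 0, 0 and 4, with shares of 12.6% and 7.41% of all genes for upper quartile scaling. Scaling to a sum of 1000000 without the unannotated entry gave 6 and 1, and 3 lower members at an unadjusted p of at most 0.05. Leaving out 1 library at a time gave 0 to 3 lower and 0 to 2 higher members at an unadjusted p of at most 0.05, and 4 to 7 lower and 2 to 4 higher members without overlap, where fewer libraries make a lack of overlap more frequent. Over all genes these shares were 1.64% to 4.84%, 7.96% to 14.0%, 5.87% to 12.5% and 21.9% to 30.6%. With a replicate block, 1 member was lower at an unadjusted p of at most 0.05, against 2.36% of all genes, and 0 were called, against 0.176%. Libraries with the same number correlated at 0.119, -0.04 and 0.04 in their deviations from the group means. The labels give them only a shared number, and whether they were paired by culture or vesicle batch is not stated.

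The median relative log2 fold change of the members stayed below 0 throughout, and was -0.07 without a filter. The replicate block and the variance model leave fold changes as they are, and scalings hardly move them relative to all genes. These alternatives therefore say little about its stability. Of the 255 single gene values under an alternative, 239 kept their sign, counted from the median of all genes, and 16 did not. The 239 include values from the alternatives that could not, or could hardly, change a sign, so their number overstates the stability. Ndufab1 became -0.0160 with median-of-ratios, -0.0279 with upper quartile scaling, -0.0076 with the filter at 5 FPKM, -0.0125 with a pseudocount of 0.1 and -0.0034 with the length correction. Ndufs3 became 0.0021 with scaling to a sum of 1000000, 0.13 without a filter and 0.0461 with a pseudocount of 5. Leaving out 1 library took Ndufab1 from -0.17 to 0.29, Ndufs1 from -0.0186 to 0.16, Ndufs3 from -0.23 to 0.38, Ndufs7 from -0.53 to 0.0387 and Ndufs8 from -0.0264 to 0.24. The median of the Q module moved between -0.19 and 0.14. The causes were not tested.

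With 3 libraries a group, standard errors were at least 0.18 on the log2 scale. Differences smaller than the distance from the estimate to either end of its interval could not be told from 0. The depth behind the FPKM is unknown, and no library was made without vesicles among those analysed here. Embryos were pooled, so neither the variation between embryos nor the makeup of cell types can be read from these values. Genes that share sequence with pseudogenes or neighbours have uncertain levels.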
